A study of Mus musculus with 10 samples.

Results

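The mitochondrial ribosomal protein genes are the nuclear genes named Mrpl or Mrps followed by a number, which encode the protein subunits of the ribosome inside mitochondria. They were taken by name from the exon window tables, with a mean RPKM (reads scaled to exon length and to library size) of at least 1 in both WT inputs and without names that end in a point and a number. All 76 names that matched passed this floor, among 30419 gene names in the tables, of which 11306 passed it. There were 47 Mrpl and 29 Mrps names. All libraries came from J-1 mouse embryonic stem cells cultured without feeder cells. WT and KO refer to the Mettl3 genotype, with 2 pairs of an m6A immunoprecipitate (IP) and its input per genotype, and an earlier pair, called the first input and first IP here, carries no genotype label. The labels do not say whether the numbered libraries came from separate cultures, whether KO was 1 clone, or which exons the allele removed, so a p-value here covers only the spread from library to library, which may be technical. The growth text shared by all libraries also mentions differentiation after LIF withdrawal, but every library is labelled as embryonic stem cells.

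The mitochondrial ribosome translates the few proteins encoded by mitochondrial DNA, which are core subunits of the respiratory chain. Its RNA comes from the mitochondrial genome, whereas all of its proteins are made in the cytosol from nuclear transcripts and imported. Many of these proteins have a counterpart in bacterial ribosomes, and the others are specific to mitochondria. Mettl3 is the catalytic subunit of the enzyme that writes m6A on messenger RNA in the nucleus, a mark found most often in long exons and near stop codons.

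The input of Mettl3 itself was 4.79 and 4.67 in WT against 3.14 and 3.38 in KO, in mean scaled coverage per exon window. That was a fall of 0.43 on the log2 scale (SE 0.07, limma adjusted p = 0.00259), so Mettl3 RNA remained in both KO libraries, and the coverage was not broken down by exon. Mean coverage over all windows was 6.70 to 6.91 in the 4 WT and KO inputs. The summed input of 10 embryonic stem cell markers was 2823 and 2906 in WT against 2276 and 2131 in KO. At an adjusted p under 0.05 (limma) 5 of the 10 fell and 1 rose, where 13.6% of all genes fell and 13.0% rose. The summed input of 8 fibroblast markers was 3.56 to 4.03 in WT and 5.98 to 6.21 in KO, with Lum listed at 0 in all 4 inputs and 6 of the 8 below 1 in each. For 10 markers of differentiated cells the sums were 2.72 to 2.91 in WT and 3.72 to 4.35 in KO. Only 2 fibroblast markers and 2 differentiated markers had enough coverage to be tested. Of these, 1 fibroblast marker rose, and the differentiated markers gave 1 rise and 1 fall. The part of these marker shifts in the values below was not tested.

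The members were well expressed. Their median WT RPKM was 20.6, against 6.60 for all 11306 genes past the floor, and it ranged from 2.24 to 64.0. The highest was Mrpl24, a large subunit protein with a bacterial counterpart, at 61.8 and 66.2 RPKM in WT 1 and WT 2. Mrpl42, specific to mitochondria, followed at 60.8 and 60.7, and Mrpl18, which sits in the central protuberance of the large subunit, at 52.6 and 54.9. The values of Mrpl18 overlapped those of Mrpl33, at 47.6 and 54.4, so their order is not resolved by these libraries. At the low end were Mrpl19, at 2.09 and 2.40, Mrps25, at 3.54 and 3.67, and Mrpl41, at 4.62 and 4.56. Those lowest members lay above the floor by more than the spread between the WT libraries. The genes were short, with a median of 24 exon windows and 5 exons, against 58 windows and 8 exons over all expressed genes.

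In KO the input RNA of the members shifted upward. With limma on log2(coverage + 1) over 11211 genes, 24 of the 76 members rose and 1, Mrps16, fell at an adjusted p under 0.05. Over all genes tested, 13.0% rose and 13.6% fell. The median change of the members was 0.14 on the log2 scale, with 63 positive and 13 negative, while the median of all genes was -0.0048. Both KO inputs lay above both WT inputs for 50 members, where 31.7% of all genes did so, and below them for 6 members (34.0% of all genes). The ratio of KO to WT mean coverage ran from 0.811 to 1.63 with a median of 1.11, so the shift was broad and small. Without the first WT library 14 members rose (6.77% of all genes did), without the second WT library or the first KO library none fell, and with no filter on low coverage no member was called, where 0.00986% of all genes rose and 0.0394% fell. With the deposited gene medians of coverage, chosen after seeing the data, 9 of 71 members rose and none fell, beside 5.21% and 6.48% of all genes. In bulk RNA, a change in the number of cells of a type and a change in RNA per cell cannot be told apart.

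**Figure D1:**
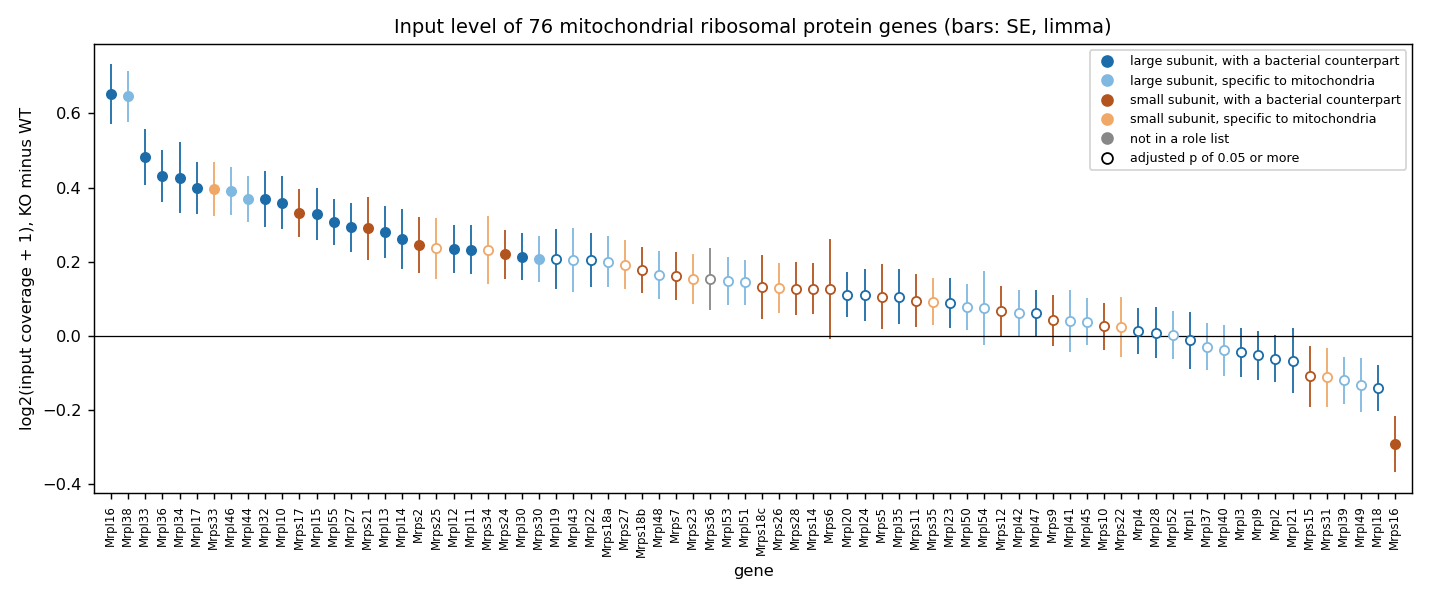
Change in input level between KO and WT for each of the 76 members, as the difference in log2(mean input coverage + 1), with the SE from limma on 2 libraries per group. Filled points passed an adjusted p of 0.05. Values run from 0.65 for Mrpl16 and Mrpl38 to -0.29 for Mrps16, and 63 of the 76 lie above 0.

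Most of the risers belonged to the large subunit, as did most of the members. Among large subunit proteins with a bacterial counterpart 15 of 30 rose and none fell, with a median change of 0.21. Mrpl16, whose bacterial counterpart lies near the peptidyl transferase centre, had an input coverage of 10.8 and 11.3 in WT 1 and WT 2 and of 19.4 and 16.5 in KO 1 and KO 2. Both KO libraries were far above both WT libraries, a 1.63-fold difference in means (0.65 on the log2 scale, SE 0.08, adjusted p = 0.00048). Mrpl33, a small protein of the large subunit, was at 32.4 and 37.1 in WT against 49.4 and 48.2 in KO, and Mrpl36, another of the smallest subunits, at 25.1 and 27.6 in WT against 34.8 and 36.9 in KO. Neither gene's groups overlapped, and the changes were 0.48 (SE 0.07, adjusted p = 0.00173) and 0.43 (SE 0.07, adjusted p = 0.00222). Mrpl33 overlaps Gm38424 in the RefSeq annotation. Mrpl34 was at 27.4 and 31.2 in WT against 35.9 and 43.8 in KO, with the wider KO spread reflected in an SE of 0.10 for a change of 0.43 (adjusted p = 0.0114). On the deposited gene medians its change was 0.18 and was not called (adjusted p = 0.308). Mrpl17, which lies near the exit of the peptide tunnel, was at 6.51 and 7.17 in WT against 9.23 and 9.43 in KO (0.40, SE 0.07, adjusted p = 0.00332). Mrpl10, the base of the flexible stalk that recruits translation factors, was at 18.7 and 21.1 in WT against 25.4 and 26.2 in KO (0.36, SE 0.07, adjusted p = 0.00637). Mrpl12, which forms the stalk itself, rose by less, from 39.9 and 42.3 to 47.8 and 49.1 (0.23, SE 0.06, adjusted p = 0.0255).

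Among the 19 large subunit proteins specific to mitochondria, 4 rose and none fell, with a median change of 0.08. Mrpl38, a protein of the central protuberance, showed a rise as large as that of Mrpl16: coverage was 11.1 and 11.3 in WT against 17.3 and 19.1 in KO. The WT libraries were nearly equal and both KO libraries were higher, by 0.65 on the log2 scale (SE 0.07, adjusted p = 0.000209). Mrpl46, also of the central protuberance, was at 13.8 and 13.4 in WT against 17.5 and 18.7 in KO (0.39, SE 0.07, adjusted p = 0.00249; 0.0547 on the gene medians). Mrpl44, which has a fold related to RNase III enzymes, was at 14.1 and 14.3 in WT against 19.0 and 18.3 in KO (0.37, SE 0.06, adjusted p = 0.00269). The remaining riser, Mrps30, carries a small subunit name but is a large subunit protein, and it was at 20.8 and 20.8 in WT against 24.7 and 23.6 in KO (0.21, SE 0.06, adjusted p = 0.0355). In contrast, Mrpl45, which helps hold the ribosome at the inner membrane, was at 18.0 and 17.8 in WT against 18.0 and 18.8 in KO, values that overlapped.

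The small subunit moved past the test less often than the large subunit proteins with a bacterial counterpart. Of 17 members with a bacterial counterpart 4 rose (Mrps17, Mrps2, Mrps21 and Mrps24) and 1 fell, with a median change of 0.13. Of 9 members specific to mitochondria 1 rose, with a median change of 0.15. Mrps33, the riser of the latter group, was at 10.0 and 11.2 in WT against 13.9 and 14.7 in KO (0.39, SE 0.07, adjusted p = 0.00428; 0.084 on the gene medians). Mrps17, the counterpart of a bacterial protein that binds early in assembly, was at 20.1 and 19.7 in WT against 26.2 and 24.4 in KO. Both KO values were higher, by 0.33 (SE 0.06, adjusted p = 0.00576). Mrps16, a small subunit protein whose mutation in people causes a mitochondrial translation defect, went the other way: it was at 31.9 and 34.9 in WT against 25.5 and 28.7 in KO. Its groups did not overlap, with a KO to WT ratio of 0.811 (-0.29, SE 0.08, adjusted p = 0.0211). That call was lost without the second WT library (adjusted p = 0.106), without the first KO library (adjusted p = 0.0723) and on the gene medians (adjusted p = 0.0728). The difference in the share of risers between the subunits was not tested. Mrps36, counted here by its name, is now known as a subunit of the 2-oxoglutarate dehydrogenase complex, and at 13.9 and 15.9 in WT against 17.7 and 15.5 in KO its groups overlapped.

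The promoters of the members at the 2 ends of this range are shown because members that move together invite a look at shared promoter letters. RefSeq start sites of GRCm38.p6, with 250 bases before and 50 after the start, were listed for 67 of the 76 members. Mrpl38 has no entry, and those printed are Mrpl16, Mrpl33 and Mrpl36, the largest rises with an entry, and Mrps16, the only fall past the test. Capitals mark the letters of 2 searched motifs on either strand: CCGGAAG (the ETS family core) and AAGATGGC (the YY1 core). Mrpl16 lies at chr19:11770165-11770464 (plus strand), Mrpl33 at chr5:31613701-31614000 (plus strand), Mrpl36 at chr13:73330759-73331058 (plus strand) and Mrps16 at chr14:20393441-20393740 (minus strand, the first of 2 listed starts).
Mrpl16: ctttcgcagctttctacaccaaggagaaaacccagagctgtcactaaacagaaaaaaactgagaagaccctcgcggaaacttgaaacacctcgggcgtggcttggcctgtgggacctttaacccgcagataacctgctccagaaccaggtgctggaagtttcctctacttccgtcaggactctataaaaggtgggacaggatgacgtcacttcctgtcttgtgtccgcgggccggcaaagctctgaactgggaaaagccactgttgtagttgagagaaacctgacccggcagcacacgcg
Mrpl33: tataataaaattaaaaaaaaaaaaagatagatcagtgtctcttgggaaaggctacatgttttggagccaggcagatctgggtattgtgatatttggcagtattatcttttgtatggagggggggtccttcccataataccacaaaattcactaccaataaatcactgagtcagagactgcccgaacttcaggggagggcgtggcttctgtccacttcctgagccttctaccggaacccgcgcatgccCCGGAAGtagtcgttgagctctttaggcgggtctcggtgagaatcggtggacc
Mrpl36: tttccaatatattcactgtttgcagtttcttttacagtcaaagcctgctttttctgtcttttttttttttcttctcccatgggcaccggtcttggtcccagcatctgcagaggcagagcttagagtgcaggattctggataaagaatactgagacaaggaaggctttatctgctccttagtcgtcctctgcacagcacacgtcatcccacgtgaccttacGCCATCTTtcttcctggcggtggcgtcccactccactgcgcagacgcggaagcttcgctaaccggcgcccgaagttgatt
Mrps16: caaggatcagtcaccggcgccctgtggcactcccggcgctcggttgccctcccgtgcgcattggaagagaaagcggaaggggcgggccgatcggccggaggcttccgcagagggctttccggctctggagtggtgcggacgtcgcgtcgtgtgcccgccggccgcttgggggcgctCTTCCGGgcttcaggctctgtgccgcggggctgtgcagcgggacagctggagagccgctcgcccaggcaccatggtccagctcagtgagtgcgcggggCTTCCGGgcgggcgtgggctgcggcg

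Mrpl33 holds the ETS letters across its start, Mrpl36 holds the YY1 letters on the opposite strand, Mrps16 holds the ETS letters at 2 places on the opposite strand, before and after its start, and Mrpl16 holds none of the motifs searched. Over the 67 members, CCGGAAG was found in 24 (35.8%), against 22.2% of 7816 expressed genes with an entry and 9.93% of all 27025. AAGATGGC was found in 12 (17.9%), against 5.92% and 3.19%. The palindromic NRF1 consensus site, named for a regulator of nuclear genes for mitochondria, was found in 3 (4.48%), against 2.69% and 1.07%. Among the 21 risers with an entry, 6 held the ETS letters, 3 the YY1 letters and 1 the NRF1 site, and among the other 46 members 18, 9 and 2 did. A match is a description of letters in this window, not a binding site. The ETS and YY1 motifs end and begin with the same 3 letters and could overlap there, but 0 of the 67 members hold them joined in this way, and 3 hold both anywhere.

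Genes that work beside these proteins were counted in 6 lists, to be read against the 13.0% of all genes that rose and the 13.6% that fell. Of 7 mitoribosomal proteins known by other names, 2 rose and 1 fell: Ict1, a peptide release factor built into the large subunit, was at 11.8 and 11.5 in WT against 15.9 and 15.5 in KO (0.40, SE 0.06, adjusted p = 0.00186), and Gadd45gip1 rose by 0.35 (SE 0.07, adjusted p = 0.00484). Chchd1, of the small subunit, was at 52.3 and 54.0 in WT against 42.5 and 46.6 in KO and fell by 0.25 (SE 0.07, adjusted p = 0.025). Of 20 assembly factors 5 rose and none fell, led by the helicase gene Ddx28 (0.41, SE 0.10, adjusted p = 0.0177) and by Mterfd2 (0.34, SE 0.09, adjusted p = 0.0182). Of 15 translation factors none rose and 1 fell, the membrane insertase gene Oxa1l (-0.25, SE 0.07, adjusted p = 0.0212), with 2 higher and 2 lower at an unadjusted p under 0.05, where 19.1% and 20.2% of all genes were. Of 16 mitochondrial aminoacyl-tRNA synthetases 3 rose and 2 fell, with Ears2 the largest rise (0.32, SE 0.07, adjusted p = 0.0103), then Yars2 (0.29, SE 0.06, adjusted p = 0.0106), and with Pars2 and Vars2 the falls (-0.25, SE 0.08, adjusted p = 0.0439, and -0.22, SE 0.07, adjusted p = 0.046). Among 82 genes of cytosolic ribosomal proteins 7 rose and 3 fell, with a median of 0.11, 67 positive and 15 negative. For the 76 members the median was 0.14, with 63 positive and 13 negative. A small upward shift in median and sign was thus not particular to the members, and the difference between these 2 sets was not tested. Among 72 genes of respiratory chain subunits 9 rose and 8 fell, with a median of 0.03, 40 positive and 32 negative. The shares of the synthetases and of the respiratory chain genes were near those of all genes.

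The members were spread widely in IP over input. The measure is log2((IP coverage + 1)/(input coverage + 1)) of a gene, less the median of all 10504 genes tested in the same library pair, so 0 is the typical gene. In WT 37 of the 76 members were above the typical gene and 24 below it at an adjusted p under 0.05, and over all genes 39.3% were above and 37.0% below. Centred on windows outside regions in place of the median gene, 55 members were above 0 and 6 below, beside 71.3% and 6.75% of all genes, so the split moved with that of all genes. The median member was at 0.41. Other translation and respiration genes were mostly below it: of 82 cytosolic ribosomal protein genes 74 were below and 4 above, with a median of -2.31, and of 72 respiratory chain subunit genes 66 were below and 2 above, with a median of -1.74. By role, the medians in WT were 0.11 for the large subunit with a bacterial counterpart, 0.78 for the large subunit specific to mitochondria, -0.20 for the small subunit with a bacterial counterpart and 1.08 for the small subunit specific to mitochondria. Across the 76 members the values of WT 1 and WT 2 had a Pearson r of 0.987, those of KO 1 and KO 2 0.948, and those of the first pair and WT 1 0.765. These are descriptions over genes of unequal length and base composition, which the libraries share.

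Mrpl12, the stalk protein, had the highest value in WT, at 3.09 and 3.14 in the WT pairs, 2.92 and 2.68 in the KO pairs and 1.41 in the first pair. Its WT mean of 3.11 (SE 0.10, adjusted p = 2.72e-06) corresponds to an IP coverage of 420 and 453 over an input of 39.9 and 42.3. Mrps26, specific to the mitochondrial small subunit, followed at 2.74 and 3.01 in WT, 1.91 and 2.69 in KO and 2.11 in the first pair. Mrps18b, a relative of bacterial S18, was at 2.85 and 2.83 in WT against 2.18 and 1.94 in KO, but at -1.03 in the first pair, whose coverage of this gene is described further on. Mrpl45 was at 2.49 and 2.98 in WT against 2.59 and 2.98 in KO. For Mrpl12, Mrps26 and Mrps18b both KO pairs were below both WT pairs, and for Mrpl45 the groups overlapped. The WT means of Mrps26, Mrps18b and Mrpl45, from 2.74 to 2.87 with SEs of 0.11 to 0.19, were not separated by their spread.

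At the other end was Mrps14, the counterpart of a bacterial protein at the head of the small subunit, at -2.36 and -3.01 in WT, -2.40 and -2.51 in KO and -1.16 in the first pair. Its IP coverage was 4.02 and 2.41 in WT, over an input of 20.3 and 22.0. Mrpl23, which lies at the exit of the peptide tunnel, was at -2.38 and -2.42 in WT against -2.71 and -1.91 in KO. Mrps9, which reaches toward the tRNA in the peptidyl site, was at -1.93 and -2.67 in WT against -1.87 and -2.08 in KO. Mrpl39, with a fold related to a tRNA synthetase, was at -2.04 and -2.50 in WT against -1.95 and -1.84 in KO. Only Mrpl39 of these 4 had WT and KO pairs that did not overlap, with KO higher. Mrpl24 and Mrpl42, the most expressed members, were also below the typical gene in WT, at -0.80 (SE 0.17, adjusted p = 0.00399) and -1.75 (SE 0.22, adjusted p = 0.000348). Mrpl18, next by mean WT RPKM, was above it, at 0.77 (SE 0.14, limma adjusted p = 0.00166).

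In KO 29 members were above the typical gene and 27 below it, beside 38.1% and 35.8% of all genes, and the median member was at -0.10. The test of the difference between KO and WT called none of the 76 members and none of the 10504 genes at an adjusted p under 0.05 (limma). At an unadjusted p under 0.05, 16 members were lower and 3 higher, beside 6.37% and 7.64% of all genes. The median difference was -0.28 for the members and 0.03 for all genes, and 51 of the 76 members were negative. Both KO pairs lay below both WT pairs for 36 members, where 21.0% of all genes did so, and above them for 10 members (25.9% of all genes). With KO 1 left out 8 members were called lower and 1 higher, beside 2.66% and 2.89% of all genes, and with KO 2 left out 23 lower and 2 higher, beside 8.82% and 8.99%. Each time the lone KO pair was assumed to vary like the WT pairs. The input, which is the denominator, rose in the same comparison by a median of 0.14 over the members, and its part in the median of -0.28 was not tested.

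**Figure D2:**
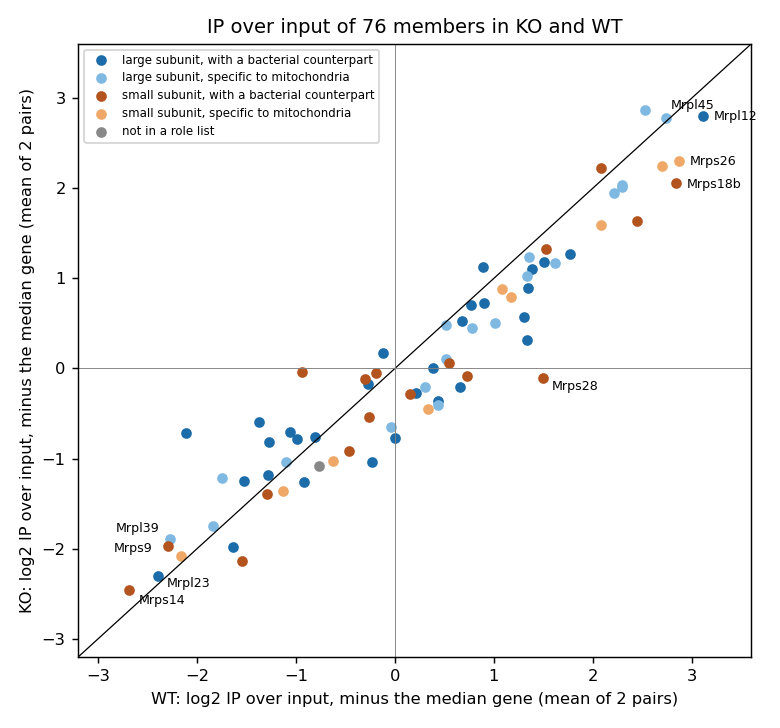
IP over input of the 76 members in KO (vertical axis) against WT (horizontal axis), each the mean of 2 library pairs on the log2 scale less the median of all genes of the pair. The diagonal marks equal values. Mrpl12 is highest in WT at 3.11 and Mrps14 lowest at -2.68, and 51 of the 76 points lie below the diagonal.

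The lowest difference belonged to Mrps28, the counterpart of bacterial S1: it was at 1.37 and 1.62 in WT, -0.46 and 0.26 in KO and 0.44 in the first pair. Both KO pairs were far below both WT pairs, by 1.60 (SE 0.28), with an unadjusted p of 0.000699 and an adjusted p of 0.226. Mrps28 overlaps 3 predicted genes in the RefSeq annotation (Gm15466, Gm52600 and Gm52601), and the share of their reads is not known. The 3 members that were higher at an unadjusted p under 0.05, named after their values were seen, were Mrpl47, Mrps18c and Mrpl1. Mrpl47 was at -2.06 and -2.17 in WT against -0.47 and -0.96 in KO (1.40, SE 0.30, adjusted p = 0.226). Mrps18c went from -1.03 and -0.84 to -0.06 and -0.02 (0.90, SE 0.23, adjusted p = 0.245), and Mrpl1 from -1.13 and -1.62 to -0.50 and -0.70 (0.77, SE 0.28, adjusted p = 0.319). All of them were below the typical gene in every WT pair. Mrpl16 and Mrpl38, the largest input rises, differ in their IP: that of Mrpl16 was 42.4 and 37.9 in WT against 48.0 and 41.5 in KO, and that of Mrpl38 was 19.0 and 18.9 in WT against 11.6 and 17.8 in KO.

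The authors' window score, called winscore, sets the IP over input of a window against the gene's own median on a log2 scale, so it marks local peaks within a transcript. A region was a run of at least 2 neighbouring windows scoring 2 or more in the first IP, which shares no library with WT or KO. By this rule 31 of 76 members (40.8%) held 35 regions, against 6136 of 11306 expressed genes (54.3%). A longer gene has more windows in which a run can occur, and the members had a median of 24 windows against 58. Members with a region had a median of 29 windows and those without 22. The part of length in these shares was not tested. By role a region was found in 10 of 30 and 11 of 19 members of the large subunit (with a bacterial counterpart and specific to mitochondria), and in 5 of 17 and 5 of 9 of the small subunit. Runs of this kind in both WT IPs were found in 49 members (64.5%, against 75.1% of expressed genes), and in both KO IPs in 53 (69.7%, against 76.2%). Of the 31 members with a region in the first IP 27 also held a run in both WT IPs, and the other 4 were Mrpl37, Mrpl43, Mrpl50 and Mrps18a, listed after their values were seen. Runs were found in WT and KO alike in 42 members, in WT and not KO in 7, and in KO and not WT in 11. The matching counts over all expressed genes were not made, so these do not set the members apart.

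Most of these regions lay in the last exon, which is not always close to the 3′ end. In Mrpl17 the window with the highest mean WT winscore lay in the last exon, but was window 122 of 136 counted from the 3′ end. Of the 30 regions in members with a known strand, 27 (90.0%) lay in the last exon, where 67.7% of 7280 regions of all expressed genes did. The exceptions were both regions of Mrpl37, in its first exon, and the region of Mrpl44, in exon 2 of 4. In the RefSeq annotation Mrpl37 overlaps Cyb5rl and Mrpl44 overlaps Wdfy1, and the share of their reads is not known. The window with the highest mean WT winscore lay in the last exon for 53 of 67 members (79.1%), against 65.9% of 7670 genes, but the last exon held a median of 48.0% of the windows of a member and 41.5% of those of a typical gene. No test of this difference in position was made. In Mrps27, a pentatricopeptide repeat protein of the small subunit with 11 exons, the IP rose to 424 in WT 1, 412 in WT 2, 305 in KO 1 and 334 in KO 2 in a window of the last exon whose input was 15.7 to 18.9. In Mrpl12, IP coverage in the last exon peaked at 2 places, reaching 1600 and 1636 in WT against 1217 and 1064 in KO at the one nearer the 3′ end, over inputs of 48.6 to 69.8. At the other place it was 1476 and 1631 in WT against 1570 and 1498 in KO, so the groups overlapped there. Mrps26 and Mrps30 also showed 2 maxima in the last exon. In Mrps30 the one nearer the 3′ end had an IP of 297 and 393 in WT against 97.3 and 141 in KO, while the other had 313 and 221 in WT against 338 and 336 in KO. These are single windows picked after their values were seen and were not tested. In Mrpl24, below the typical gene, the highest IP of any window was 92.6 and 145 in WT against 96.2 and 116 in KO.

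**Figure D3:**
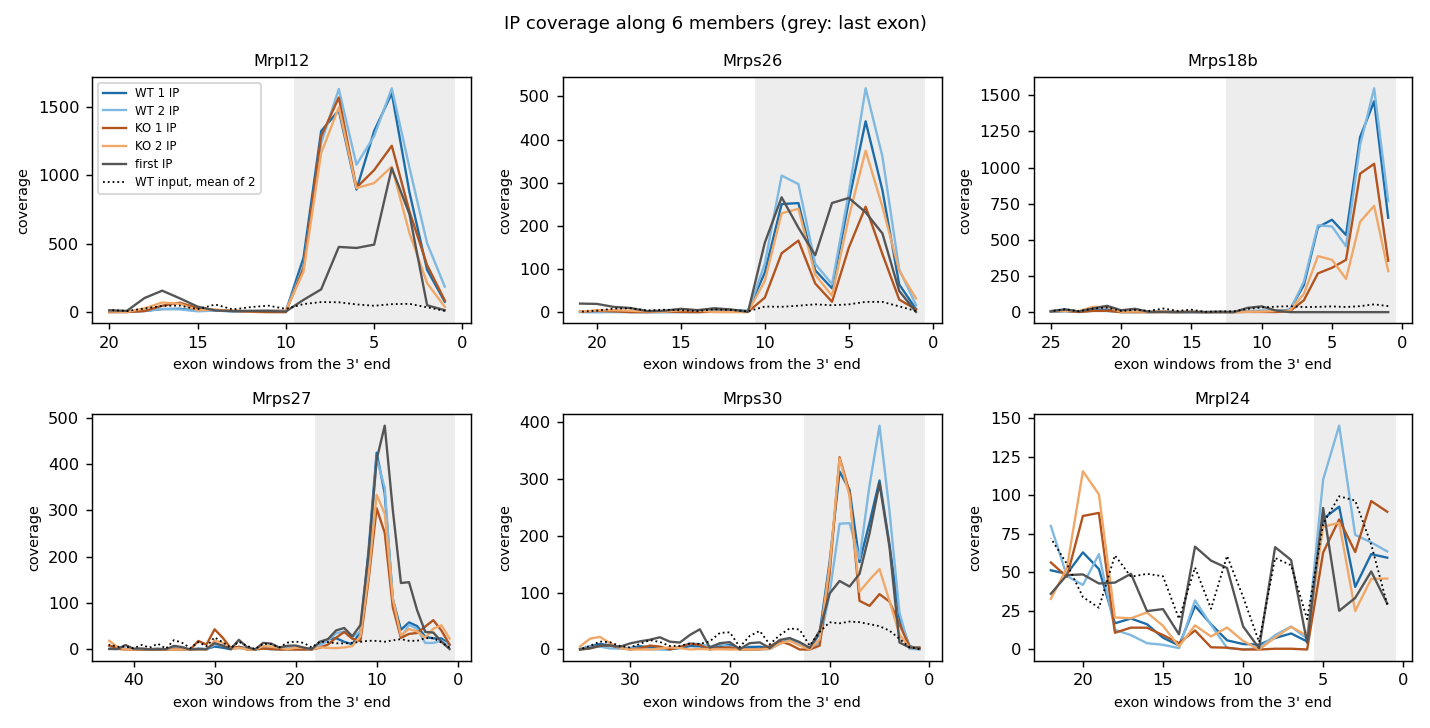
IP coverage along the exon windows of Mrpl12, Mrps26, Mrps18b, Mrps27, Mrps30 and Mrpl24, with the 5′ end at the left and the 3′ end at the right. Lines are single libraries, the dotted line is the mean of the 2 WT inputs, and grey marks the last exon. The highest window of each WT and KO IP falls in the grey part in all 6 genes, except for KO 2 in Mrpl24, and the first IP is at 0 in the last windows of Mrps18b.

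Among the 12 members with the highest mean winscore in the first IP, the large subunit gave Mrpl46 at 4.40, Mrpl10 at 3.95, Mrpl19 at 3.89, Mrpl41 at 3.51, Mrpl44 at 3.23 and Mrpl16 at 3.20. The small subunit gave Mrps34 at 4.07, Mrps25 at 3.75, Mrps27 at 3.59, Mrps2 at 3.18, Mrps23 at 3.01 and Mrps28 at 2.90. The 3 least expressed members, Mrpl19, Mrps25 and Mrpl41, were thus all among them. In Mrpl46 the region covers the last 5 windows of the transcript, and its winscore was 5.26 and 4.93 in WT against 4.26 and 4.93 in KO. Its KO values did not exceed its WT values, and they met at 4.93 to 2 decimals. In Mrpl41, most of which is a single long last exon, the winscore was 4.05 and 4.22 in WT against 4.42 and 3.90 in KO, and the groups overlapped. In Mrps34, specific to the mitochondrial small subunit, it was 4.09 and 2.77 in WT against 2.73 and 2.97 in KO.

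The region winscore did not differ between KO and WT past the test in any of the 35 member regions or of 10181 regions in all (limma, adjusted p under 0.05). At an unadjusted p under 0.05, 5 member regions were lower and none higher, beside 5.08% and 3.19% of all regions. The median difference was -0.51 for the member regions and -0.08 for all, with 25 of 35 negative. Both KO values lay below both WT values in 18 regions (22.6% of all regions did so) and above them in 4 (17.5%). Without KO 1 the test called 1 member region lower and none higher, beside 2.76% and 0.953% of all regions, and without KO 2 it called 4 lower and 3 higher, beside 7.89% and 5.09%. A large fall was that of Mrpl4, named after its values were seen, at 4.16 and 4.28 in WT against 1.32 and 2.82 in KO (-2.15, SE 0.68, adjusted p = 0.549).

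Region IP over input is the same ratio taken over the windows of a region, less the median of windows outside regions in the same pair. It was above 0 in both WT libraries in all 35 member regions. The regions were chosen for a high score in the first IP, and the matching share of all regions was not counted. The highest, the first of Mrpl45, was at 6.59 and 7.38 in WT against 6.31 and 6.69 in KO, so its groups overlapped. Other examples in WT were 5.45 and 5.57 in Mrpl12, 5.34 and 5.30 in Mrps25 and 5.18 and 5.33 in Mrps34. In KO the regions of Mrpl12, Mrps25 and Mrps34 were at 5.08 and 4.79, at 4.82 and 4.08 and at 4.27 and 4.61. Each was lower than in WT but still far above windows outside regions. The median difference was -0.81 for the 35 member regions and -0.46 for all 9603 regions tested, and 32 of the 35, beside 7503 of the 9603, were negative. Both KO values lay below both WT values in 27 member regions, where 46.8% of all regions did so, and above them in 1 region (7.20%). The test called no member region and no region in all at an adjusted p under 0.05 (limma), and at an unadjusted p under 0.05 it gave 12 member regions lower and none higher, beside 15.5% and 1.33% of all regions. Without KO 1 it called 3 member regions lower, beside 7.02% of all regions, and without KO 2 it called 8 lower and 1 higher, beside 21.9% and 2.36%, shares near those of the 35 member regions.

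In Mrps28 the region's IP was 368 and 381 in WT, 69.0 and 150 in KO and 115 in the first IP, over inputs of 32.6, 31.0, 34.8, 38.1 and 34.6. The IP was low in both KO libraries, whose inputs were slightly above both WT inputs, and the region IP over input differed by -2.14 (SE 0.46, adjusted p = 0.268). In Mrpl10 the region's IP was 337 and 352 in WT against 157 and 207 in KO, over an input of 34.5 and 37.1 in WT against 44.6 and 45.3 in KO (-1.33, SE 0.36, adjusted p = 0.268). There the IP was also lower and the input higher in KO. Mrpl41 showed no such shift, with an IP of 320 and 314 in WT against 348 and 385 in KO (0.05, SE 0.27, adjusted p = 0.931). Mrpl46 was close to it, with an IP of 303 and 370 in WT against 334 and 300 in KO, so that its difference of -0.44 (SE 0.27, adjusted p = 0.407) went with an input of 18.9 and 20.0 in WT against 26.4 and 21.5 in KO. The region that stood above its WT values in KO was the second of Mrpl37, at 1.56 and 1.21 in WT against 2.94 and 2.46 in KO (1.31, SE 0.57, adjusted p = 0.308). The third region of Mrpl45 had KO values of 6.78 and 0.06, so its KO libraries do not give a common value.

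**Figure D4:**
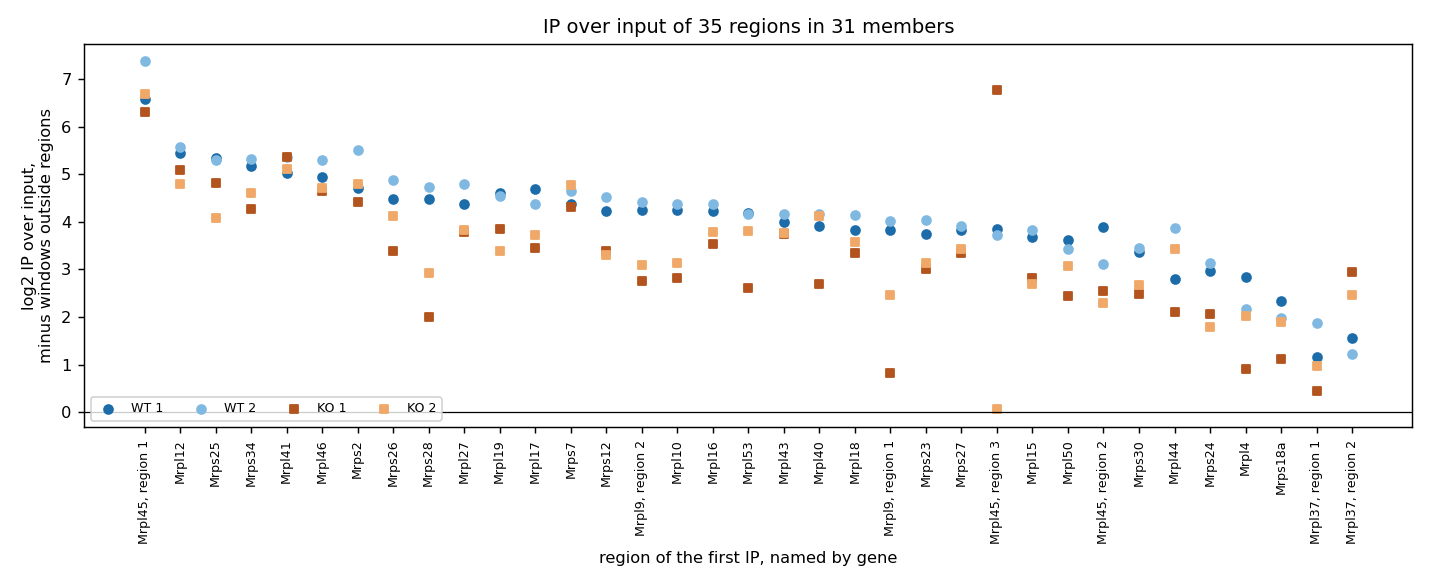
IP over input of the 35 regions of the first IP in 31 members, in each WT library (circles) and KO library (squares), on the log2 scale less the median of windows outside regions of the same pair. Regions are ordered by their WT mean. Both KO values lie below both WT values in 27 regions, and the third region of Mrpl45 has KO values of 6.78 and 0.06.

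Input rises were found among members with and without a region in the first IP, where 13.0% of all genes rose and 13.6% fell. Of the 31 with a region 11 rose and none fell, with a median change of 0.20, and of the 45 without 13 rose and 1 fell, with a median of 0.11. Of the 37 members called above the typical gene in WT IP over input 15 rose and none fell, with a median of 0.20. Of the 24 called below it 2 rose and 1 fell, with a median of 0.06. That grouping shares the WT inputs with the change itself. For gene IP over input the median difference between KO and WT was -0.37 with a region (26 of 31 negative) and -0.12 without (25 of 45 negative). The differences between these groups of members were not tested.

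The first pair covered a few members unlike WT. First input coverage of 53 members was at least that of the WT mean, and the matching count over all genes was not made. Over all windows the first input was also higher, with a mean coverage of 9.31 against 6.70 and 6.91 in the WT inputs. For 3 members, however, the first input was nearly empty. Mrps33 was at 0.481 in the first input and 10.0 and 11.2 in WT, Mrpl23 at 0.52 and 17.5 and 17.6, and Mrps36 at 0.152 and 13.9 and 15.9. Their first IP coverage was as low, at 0.517, 0.417 and 0.227. Mrps36 and Mrpl23 have named pseudogenes in the RefSeq table, as do Mrpl27 and Mrpl48, whereas Mrps33 has none. In Mrps18b the last 8 windows of its last exon were at 0 in the first input and first IP, where WT 2 IP coverage reached 1548. Windows at 0 in both libraries of the first pair made up 29 of 1449 windows with a coverage of at least 5 in the WT inputs (2.00%), in 10 members, against 2.44% of 299442 windows of all expressed genes. Headers of the first pair's table speak of unique coverage, and the part of read mapping in these gaps was not tested. Absence of a first IP region in these members says nothing about m6A in those windows.

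**Figure D5:**
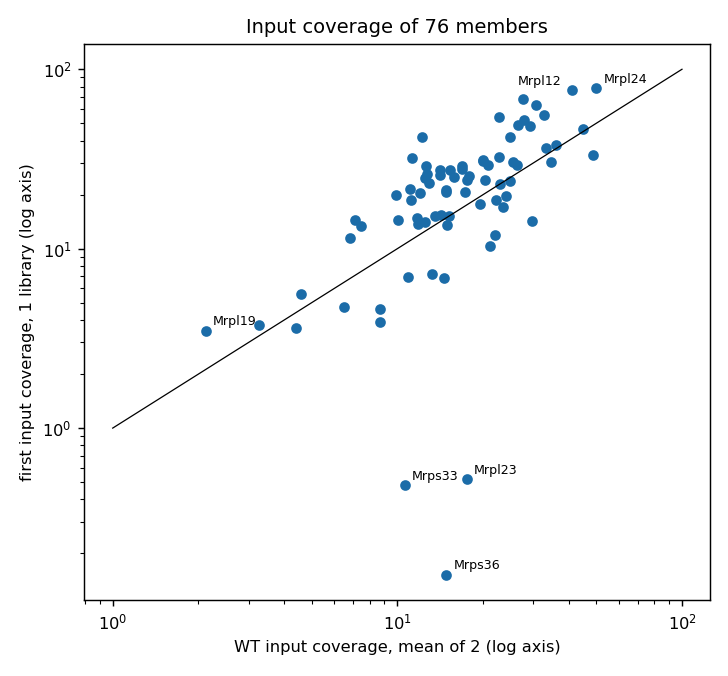
Mean input coverage per exon window of the 76 members in the first input (1 library, vertical log axis) against the mean of the 2 WT inputs (horizontal log axis), with the line of equal values. Mrps33, Mrpl23 and Mrps36 lie far below the line, and 53 members lie on or above the line.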

How the data were processed

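J-1 mouse embryonic stem cells were profiled by m6A immunoprecipitation and input sequencing, in 10 libraries. The submitters' processing notes name TopHat 1.1.3 and the mouse build mm9; no other setting is given in the sources used here. The deposited window tables give coverage, a scaled signal whose factor is not stated, for each exon window of a gene, and a log2 winscore per the file headers, which was recomputed from the coverage in all 1510223 windows to within 4.97e-14. Exons are numbered in genomic order, so exon 1 of a minus-strand gene is its last. The authors' RPKM table gives gene values for columns named as inputs. Its KO columns followed the KO IP (Pearson r of 0.958 and 0.974 over 11306 genes) more than the KO input (0.697 and 0.712), so input levels were taken from window coverage and RPKM was used only for the floor and for WT levels.

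Gene means of coverage were tested with limma 3.58.1 (eBayes with trend, no replicate block) in R 4.3.3, with a pseudocount of 1, a coverage of at least 1 in at least 2 inputs for the level and in all 4 inputs for IP over input, and Benjamini-Hochberg adjustment over all features. The fit was tested on simulated data. WT and KO libraries with the same number did not deviate together over the features (r of -0.03 to 0.03), so no block was used in the main fit. With 2 libraries per group this cannot show whether same-numbered libraries were prepared together. Named members were those with the largest input changes past the test, the 12 highest first IP regions, and the extremes of WT RPKM and of WT IP over input. The members and gene lists were chosen with earlier results of these data known. In RefSeq 24 members overlap another gene; whether coverage was kept per strand is not given in the sources used here. Alternatives changed the pseudocount, filter, centring, block, threshold, level table and libraries.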

Additional observations from a re-analysis of the deposited data

How the results depend on the processing

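The count of members higher in KO input was 24, and 24 to 26 with other pseudocounts, a filter at 5, libraries centred on the median gene, or the replicate block (24 higher and 1 lower). Over all genes 13.0% were higher, and 11.9% to 15.9% at those other settings. With no filter, 0 members were higher and 0 lower, and 15 genes were called in all, against 2977. A filter at 5 called 1930 genes in all. With values from the RPKM table, whose KO columns followed the KO IP, 39 members were higher and 19 lower. Of 12245 genes 40.9% were higher and 24.1% lower, 7965 in all. There Mrpl33 reversed to -0.86, and Mrps33 was no longer past the test. With the deposited gene median of coverage, chosen after seeing the data, 9 of 71 members were higher and 0 lower. Over all genes 5.21% were higher and 6.48% lower, and 1232 were called. Leaving out each library in turn gave 14 to 24 members higher, 0 to 1 lower and 1743 to 3144 genes in all. The cause of these changes was not tested.

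For WT IP over input, centring on windows outside regions left 6 members below 0, against 24, and a minimum input of 5 called 4619 genes, against 8017 among more genes tested. For the KO and WT difference in IP over input, leaving out each pair in turn gave 0 to 2 members higher, 0 to 23 lower and 0 to 1870 genes; for region winscore 0 to 3 member regions higher, 0 to 4 lower and 0 to 1321 in all; for region IP over input 0 to 1 higher, 0 to 8 lower and 0 to 2329 in all. The replicate block called 1 gene in IP over input and 65 regions by winscore, none of them in members. A first IP region was found in 58 members at a threshold of 1 (76.3%, against 79.3% of expressed genes). At a threshold of 3 it was found in 15 members (19.7%, against 35.9%). Runs in both WT IPs, a rule chosen after seeing the data, were found in 49 members (64.5%, against 75.1%). Absolute depth is unknown, and IP windows of members at 0 made up 8.49% in the first IP, 20.0% and 33.2% in WT and 39.8% and 30.6% in KO.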
